A study of Mus musculus with 22 samples.

Results

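Cold-inducible RNA-binding genes and heat shock genes are described here in the colon of mice. The set comprised 10 named genes of the 23997 in the deposited expression table: 2 cold-inducible RNA-binding genes, Cirbp and Rbm3, and 8 heat shock genes, Hspa1a, Hspa1b, Hsph1, Dnajb1, Hspa8, Hsp90aa1, Hspd1 and Hspe1. They were chosen by name with their values in these libraries already known. Their levels and differences between groups are therefore given as a description, with no p-value for a single member. Counts of members past the threshold of the fits over all genes are description too, and no test of the set. All 10 passed the filter on low values, a level of 1 FPKM or more in no fewer than 4 of the libraries compared. RNA-seq was run on the colon of wild type BALB/c mice, in 22 libraries that fall into 4 groups. The HMLS group (4 libraries) and the TM group (5 libraries) drank the deep sea water named HMLS or TM in the labels, the DSS group (5 libraries) drank distilled water, and all 3 groups received 5% dextran sulfate sodium (DSS), a polymer that injures the colonic epithelium, in the last week before sacrifice. The control group (CON, 8 libraries) drank distilled water without DSS. The mice drank their water for 3 weeks from the age of 5 weeks. The sample labels count the DSS week within this time and the design text places it afterwards, so the age at sacrifice is uncertain. There was no group given a deep sea water without DSS, and the labels do not say whether each library came from a separate mouse, so the spread between libraries may be technical.

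Chaperones bind unfolded protein and help it fold or be degraded. When unfolded protein accumulates, as in heat, heat shock factor 1 (Hsf1) binds heat shock elements, which are inverted repeats of GAA and TTC in promoters, and raises the transcription of inducible chaperones such as Hspa1a, Hspa1b, Hsph1 and Dnajb1. Cirbp and Rbm3 encode small RNA-binding proteins whose mRNAs rise when mammalian cells are moderately cooled and fall when they are warmed. In rodents, extracellular CIRBP protein is also known as a signal of tissue damage. No body or tissue temperature is given in the labels.

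Promoters were available from RefSeq (GRCm38.p6) for 7 of the 10 genes, and not for Rbm3, Hspa8 and Hsp90aa1. The 250 bases before the transcription start were searched for a 2-unit heat shock element, written GAANNTTC or TTCNNGAA, each of which reads the same on both strands, and for a 3-unit element, GAANNTTCNNGAA or TTCNNGAANNTTC, which are each other's reverse complement. A 3-unit element overlaps a pair of 2-unit elements by construction. The windows of Dnajb1, also an inducible gene, held no element and are not shown. The 5 windows below come from Hspa1a, Hspa1b, Hsph1 and Hspe1, which hold an element, and from Cirbp, whose expression differed in the opposite direction. Each is printed 5′ to 3′ on the strand of its gene, with the 2-unit elements in capitals.
Hspa1a, chr17:34972157-34972406, minus strand: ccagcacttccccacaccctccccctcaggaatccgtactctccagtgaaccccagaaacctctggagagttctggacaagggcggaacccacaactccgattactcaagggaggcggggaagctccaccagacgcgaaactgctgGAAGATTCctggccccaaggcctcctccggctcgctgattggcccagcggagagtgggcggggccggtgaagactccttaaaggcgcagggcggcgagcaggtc
Hspa1b, chr17:34959239-34959488, minus strand: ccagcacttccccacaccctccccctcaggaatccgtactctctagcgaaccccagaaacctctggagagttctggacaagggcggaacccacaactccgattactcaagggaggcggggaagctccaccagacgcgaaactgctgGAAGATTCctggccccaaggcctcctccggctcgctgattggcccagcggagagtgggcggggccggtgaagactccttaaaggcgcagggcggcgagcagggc
Hsph1, chr5:149636337-149636586, minus strand: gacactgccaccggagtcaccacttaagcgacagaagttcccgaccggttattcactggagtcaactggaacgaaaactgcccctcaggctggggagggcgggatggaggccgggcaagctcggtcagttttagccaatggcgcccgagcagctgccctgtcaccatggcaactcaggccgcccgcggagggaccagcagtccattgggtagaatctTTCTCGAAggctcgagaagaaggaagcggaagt
Hspe1, chr1:55087898-55088147, plus strand: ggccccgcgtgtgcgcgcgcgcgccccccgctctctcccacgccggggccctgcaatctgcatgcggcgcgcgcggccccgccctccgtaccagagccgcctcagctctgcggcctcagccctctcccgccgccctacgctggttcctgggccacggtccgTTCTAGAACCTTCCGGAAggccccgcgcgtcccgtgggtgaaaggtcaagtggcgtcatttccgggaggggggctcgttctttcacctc
Cirbp, chr10:80167589-80167838, plus strand: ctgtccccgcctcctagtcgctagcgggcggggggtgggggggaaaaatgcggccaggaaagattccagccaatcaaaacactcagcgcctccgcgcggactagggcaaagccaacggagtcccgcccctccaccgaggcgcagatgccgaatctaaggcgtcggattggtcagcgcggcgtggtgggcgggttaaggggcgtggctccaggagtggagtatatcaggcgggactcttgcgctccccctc
The Hspa1a and Hspa1b windows differed at 3 of 250 bases (98.8% identical) and held the same element, which began 104 bases before the start. The element of Hsph1 began 33 bases before the start. Hspe1 held an unbroken run of 3 overlapping 2-unit elements, which make 2 overlapping 3-unit elements, and 1 of the 2 windows of Hspd1, on the other strand, held the same run. No match was found in the 2 windows of Cirbp or the 2 of Dnajb1. Both windows of Cirbp, 1 of Dnajb1 and the Hspd1 window with the run lie inside the gene bodies given below, before internal starts. For Cirbp and Dnajb1 the lack of a match therefore holds for these windows only. Of the 11 windows of the 7 genes, 6 held a 2-unit and 2 a 3-unit element, beside 12.8% and 0.466% of all 32851 windows in the RefSeq table. These 6 are not independent: the windows of Hspa1a and Hspa1b are near-identical copies, the 2 of Hsph1 overlap, and Hspd1 and Hspe1 share their element. A match is a string of letters and does not show that a factor binds there.

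The genes lie on 8 mouse chromosomes in the GENCODE M21 annotation of GRCm38, and all are protein-coding. Cirbp lies at chr10:80165985-80172786 and Rbm3 at chrX:8138975-8145880. Hsph1 lies at chr5:149614287-149636376, Dnajb1 at chr8:83608193-83612653, Hspa8 at chr9:40800984-40810087 and Hsp90aa1 at chr12:110690605-110702728. Hspa1b (chr17:34956436-34959238) and Hspa1a (chr17:34969190-34972156) are neighbours, 9951 bases apart. Of the windows of 100 bases in the Hspa1a transcript, 47.1% occur unchanged in the Hspa1b transcript, so how reads were divided between these genes is uncertain. Hspd1 (chr1:55077835-55088243) and Hspe1 (chr1:55088132-55091307) stand head to head and overlap by 112 bases. The annotation also names 5 pseudogenes after Hspd1, 6 after Hspe1 and 1 after Rbm3, and whether the authors' counting used strand is not stated in the sources used here, so these values too may include reads of a copy or partner.

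The libraries held 48089882 to 68733410 reads, of which 82.3% to 92.7% were mapped, and no pair of libraries was identical. The mapped share was 88.8% to 90.5% in HMLS, 89.5% to 92.7% in TM, 82.3% to 88.9% in DSS and 89.9% to 91.9% in CON, so DSS and CON did not overlap in it. All 7 colonic epithelium markers were detected, with summed levels of 3545 to 3841 FPKM in HMLS, 3168 to 4978 in TM, 2898 to 5512 in DSS and 2536 to 4258 in CON, and 2, 1 and 2 of them were higher than in CON in HMLS, TM and DSS. The 6 adipocyte markers summed to 42.7 to 436 FPKM in HMLS, 22.6 to 84.8 in TM, 32.6 to 127 in DSS and 86.6 to 1349.7 in CON, with 1, 6 and 6 of them lower than in CON in HMLS, TM and DSS. The 6 smooth muscle markers summed to 1286 to 2429.9 FPKM in HMLS, 804 to 1758 in TM, 561 to 2195 in DSS and 1269 to 2466 in CON, with 0, 4 and 3 lower. The 6 B and plasma cell markers summed to 7.95 to 10.8 FPKM in HMLS, 18.3 to 103 in TM, 5.81 to 24.0 in DSS and 15.0 to 171 in CON, with 5, 0 and 4 lower. The 4 neutrophil markers summed to 2.02 to 19.8 FPKM in HMLS, 4.07 to 89.4 in TM, 2.77 to 59.8 in DSS and 0.665 to 2.12 in CON, with 1, 2 and 2 higher. The 4 macrophage markers summed to 29.8 to 83.9 FPKM in HMLS, 96.9 to 160.4 in TM, 44.4 to 80.0 in DSS and 60.2 to 154 in CON, with 3, 0 and 1 lower. The 3 endothelium markers summed to 7.22 to 17.2 FPKM in HMLS, 14.3 to 20.2 in TM, 6.34 to 17.4 in DSS and 11.1 to 24.6 in CON, with 2, 0 and 1 lower. None of the markers of these 7 lists was at 0 throughout a group. Of 3 further lists, the T cell and the enteric neuron and glia markers had 0 higher or lower than in CON. In the skeletal muscle list 1 marker was lower in TM and 1 in DSS, and Myh4 was at 0 in all HMLS and all DSS libraries. The part of these cell types in the results below was not tested. In whole tissue, fewer cells of a type and less RNA per cell cannot be told apart.

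Cirbp, which encodes the cold-inducible RNA-binding protein, was several fold higher in every DSS-treated group than in CON. Its level was 186, 97.5, 74.8 and 142 FPKM in the HMLS libraries, 45.5, 154, 78.6, 155 and 125 FPKM in the TM libraries, and 56.2, 92.7, 164, 43.3 and 145 FPKM in the DSS libraries. In CON its lowest, median and highest levels were 15.9, 24.1 and 31.8 FPKM. All 14 DSS-treated libraries lay above all 8 CON libraries, and within each DSS-treated group the levels were widely spread. The mean was 125 ± 49.1 FPKM in HMLS (SD, n = 4), 112 ± 48.3 in TM and 100.3 ± 53.2 in DSS (n = 5 each), and 24.9 ± 5.15 in CON (n = 8). On the log2(FPKM + 1) scale, used for all differences here, Cirbp was higher by 2.23 ± 0.21 (SE) in HMLS, 2.01 ± 0.26 in TM and 1.82 ± 0.28 in DSS than in CON. These differences ranked 8 of 13400, 20 of 13485 and 26 of 13483 genes, counted from the largest increase. Leaving out any 1 library kept them between 2.01 and 2.44, 1.86 and 2.30, and 1.60 and 2.07.

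Rbm3, the related RNA-binding motif protein 3, which binds ribosomal subunits and favours translation in cooled cells, differed in the same direction but by much less. It stood at 164, 155, 153 and 206 FPKM in the HMLS libraries, 242, 170.2, 162, 218 and 186 FPKM in the TM libraries and 239.9, 196, 189, 139 and 190.4 FPKM in the DSS libraries. In CON the lowest, median and highest were 100.2, 125 and 177 FPKM. The groups overlapped, since CON replicate 1 at 177 FPKM lay above several DSS-treated libraries, and the lowest DSS library at 139 FPKM lay below 2 CON libraries. The means were 169 ± 24.8 FPKM in HMLS, 196 ± 33.4 in TM and 191 ± 35.7 in DSS, against 128 ± 25.4 in CON, differences of 0.42 ± 0.15, 0.62 ± 0.14 and 0.58 ± 0.15 on the log2 scale. Per transcript length, Rbm3 was the more abundant of the pair in CON, where the level of Cirbp was 8.97% to 25.2% of that of Rbm3, with a median of 21.4%. The median ratio was 65.9% in HMLS, 67.4% in TM and 47.3% in DSS, and the lowest DSS-treated libraries, at 18.8% in TM and 23.4% in DSS, lay within the CON range.

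**Figure D1:**
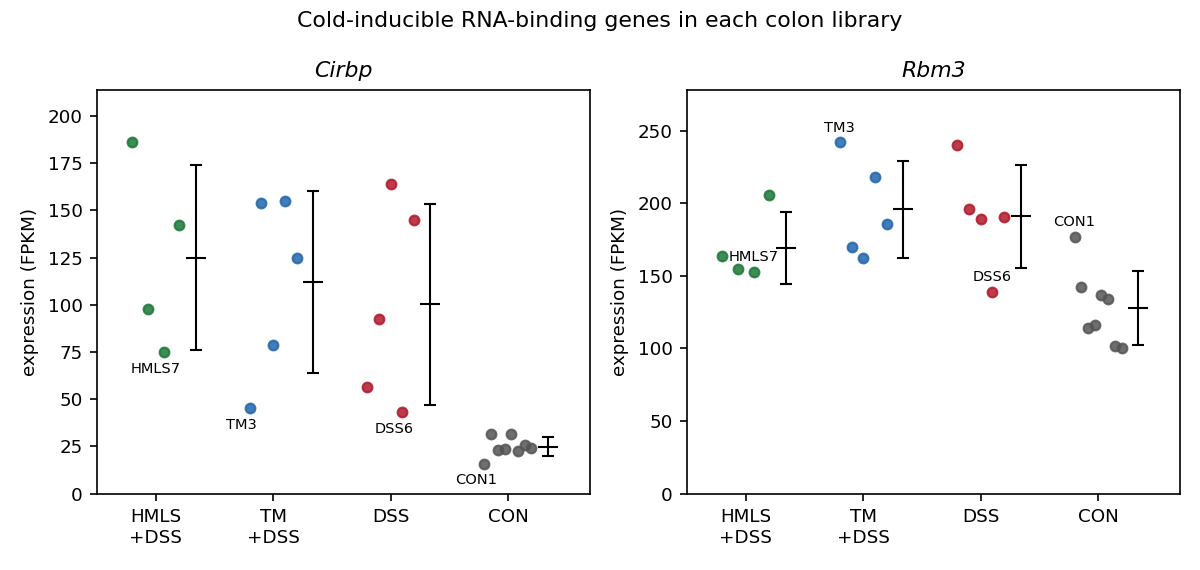
Expression in FPKM of Cirbp and Rbm3, 1 point per library, with the group mean and SD beside the points. Every DSS-treated library lies above the CON maximum of 31.8 FPKM in Cirbp, while the groups overlap in Rbm3, where CON replicate 1 is at 177 FPKM. Libraries CON1, DSS6, HMLS7 and TM3 are named.

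Hspa1a and Hspa1b encode the strongly inducible cytosolic Hsp70 and were the heat shock genes with the widest spread between libraries. Hspa1a was at 1.59, 1.54, 9.37 and 0.677 FPKM in the HMLS libraries, 2.47, 1.08, 1.37, 1.89 and 1.94 FPKM in the TM libraries and 1.38, 2.62, 0.599, 12.9 and 2.46 FPKM in the DSS libraries, and its lowest, median and highest levels in CON were 3.75, 6.37 and 34.7 FPKM. Hspa1b was at 2.57, 6.01, 19.1 and 1.55 FPKM in the HMLS libraries, 4.94, 2.42, 3.77, 3.61 and 3.58 FPKM in the TM libraries and 5.30, 10.9, 0.668, 32.8 and 3.08 FPKM in the DSS libraries, against 9.93, 14.3 and 95.1 FPKM as the lowest, median and highest in CON. In both genes all TM libraries lay below all CON libraries. HMLS replicate 7 and DSS replicate 6 stood within the CON range, and in Hspa1b DSS replicate 2 did as well. The log2 differences of Hspa1a from CON were -1.56 ± 0.59 (SE) in HMLS, -1.83 ± 0.42 in TM and -1.39 ± 0.55 in DSS. For Hspa1b they were -1.77 ± 0.67, -2.16 ± 0.45 and -1.54 ± 0.69. The level of Hspa1b had a median of 216% of that of Hspa1a in HMLS, 200.2% in TM, 254% in DSS and 244% in CON, within the doubt over shared reads.

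Single libraries decided much of the size of these differences. Without HMLS replicate 7 the HMLS minus CON difference was -2.11 for Hspa1a and -2.36 for Hspa1b, and without DSS replicate 6 the DSS minus CON difference was -1.88 and -2.11. Without DSS replicate 5, whose Hspa1b level of 0.668 FPKM was the lowest of all libraries, the Hspa1b difference was -1.02. Without CON replicate 1, at 34.7 FPKM for Hspa1a and 95.1 FPKM for Hspa1b, the TM minus CON differences were -1.56 and -1.84.

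The co-chaperones of Hsp70 differed from each other. Hsph1, the Hsp110 protein that exchanges the nucleotide of Hsp70, was at 4.66, 6.68, 14.1 and 4.51 FPKM in the HMLS libraries, 7.67, 4.92, 5.73, 4.59 and 5.26 FPKM in the TM libraries and 6.19, 7.08, 3.86, 19.7 and 8.21 FPKM in the DSS libraries, against 14.6, 20.9 and 55.4 FPKM as the lowest, median and highest in CON. DSS replicate 6 was the only DSS-treated library inside the CON range. Its log2 differences from CON were -1.60 ± 0.33 in HMLS, -1.85 ± 0.25 in TM and -1.41 ± 0.33 in DSS. Dnajb1, the Hsp40 protein that hands unfolded protein to Hsp70, stayed close to its CON level. It was at 16.1, 19.4, 32.6 and 20.9 FPKM in the HMLS libraries, 21.3, 19.0, 20.2, 18.7 and 23.9 FPKM in the TM libraries and 20.8, 27.6, 17.0, 31.5 and 24.7 FPKM in the DSS libraries, against 22.7, 25.4 and 32.0 FPKM as the lowest, median and highest in CON. All 3 groups overlapped CON, and the differences were -0.27 ± 0.15 in HMLS, -0.33 ± 0.09 in TM and -0.13 ± 0.13 in DSS. Without DSS replicate 5 the DSS difference was -0.01.

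Hspa8 and Hsp90aa1, abundant cytosolic chaperones, were separated from CON without overlap. Hspa8, the constitutive Hsp70 of the cytosol, was at 450.1, 510.2, 591 and 484 FPKM in the HMLS libraries, 626, 432, 586, 428 and 501 FPKM in the TM libraries and 489, 474, 516, 635 and 466 FPKM in the DSS libraries, against 734, 861 and 1608 FPKM as the lowest, median and highest in CON. Hsp90aa1, the inducible form of the cytosolic Hsp90 that completes the folding of kinases and steroid receptors, was at 47.4, 48.5, 68.3 and 53.3 FPKM in the HMLS libraries, 63.0, 47.4, 47.2, 45.6 and 53.6 FPKM in the TM libraries and 58.0, 40.4, 47.7, 63.8 and 56.3 FPKM in the DSS libraries, against 101, 111 and 243 FPKM as the lowest, median and highest in CON. Every DSS-treated library lay below every CON library in both genes. The groups were also close to each other: Hspa8 differed from CON by -0.86 ± 0.17 in HMLS, -0.86 ± 0.17 in TM and -0.85 ± 0.16 in DSS, and Hsp90aa1 by -1.17 ± 0.20, -1.24 ± 0.18 and -1.20 ± 0.19 on the log2 scale. Against its constitutive paralogue Hsp90ab1, the level of Hsp90aa1 was 20.6% to 27.2% in HMLS, 15.5% to 22.2% in TM and 17.6% to 25.0% in DSS, and 24.5% to 43.5% in CON. Hspa8 was the most abundant of the 10 genes per transcript length in all 4 groups, and the median level of Hspa1b was 0.875% of that of Hspa8 in HMLS, 0.714% in TM, 1.08% in DSS and 1.68% in CON.

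Hspd1 and Hspe1 encode the Hsp60 ring and the Hsp10 lid of the mitochondrial chaperonin and are known to share a promoter. Hspd1 was at 47.2, 64.3, 85.5 and 64.6 FPKM in the HMLS libraries, 86.3, 51.4, 66.5, 53.9 and 58.2 FPKM in the TM libraries and 77.7, 68.4, 46.2, 82.5 and 47.3 FPKM in the DSS libraries, against 81.3, 93.2 and 141 FPKM as the lowest, median and highest in CON. Hspe1 was at 47.1, 67.1, 74.3 and 44.3 FPKM in the HMLS libraries, 95.8, 57.2, 67.4, 49.6 and 54.8 FPKM in the TM libraries and 98.2, 69.9, 41.4, 79.5 and 45.1 FPKM in the DSS libraries, against 85.9, 97.9 and 149 FPKM as the lowest, median and highest in CON. In both genes the lower DSS-treated libraries were clear of CON and the highest reached into it, except that all HMLS libraries lay below CON in Hspe1. Hspd1 differed from CON by -0.57 ± 0.16 in HMLS, -0.61 ± 0.15 in TM and -0.60 ± 0.17 in DSS, and Hspe1 by -0.83 ± 0.16, -0.68 ± 0.16 and -0.67 ± 0.20. Hspe1 stood at 68.6% to 126% of the level of Hspd1 over all libraries, with medians of 93.4% in HMLS, 101% in TM, 96.4% in DSS and 107% in CON.

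**Figure D2:**
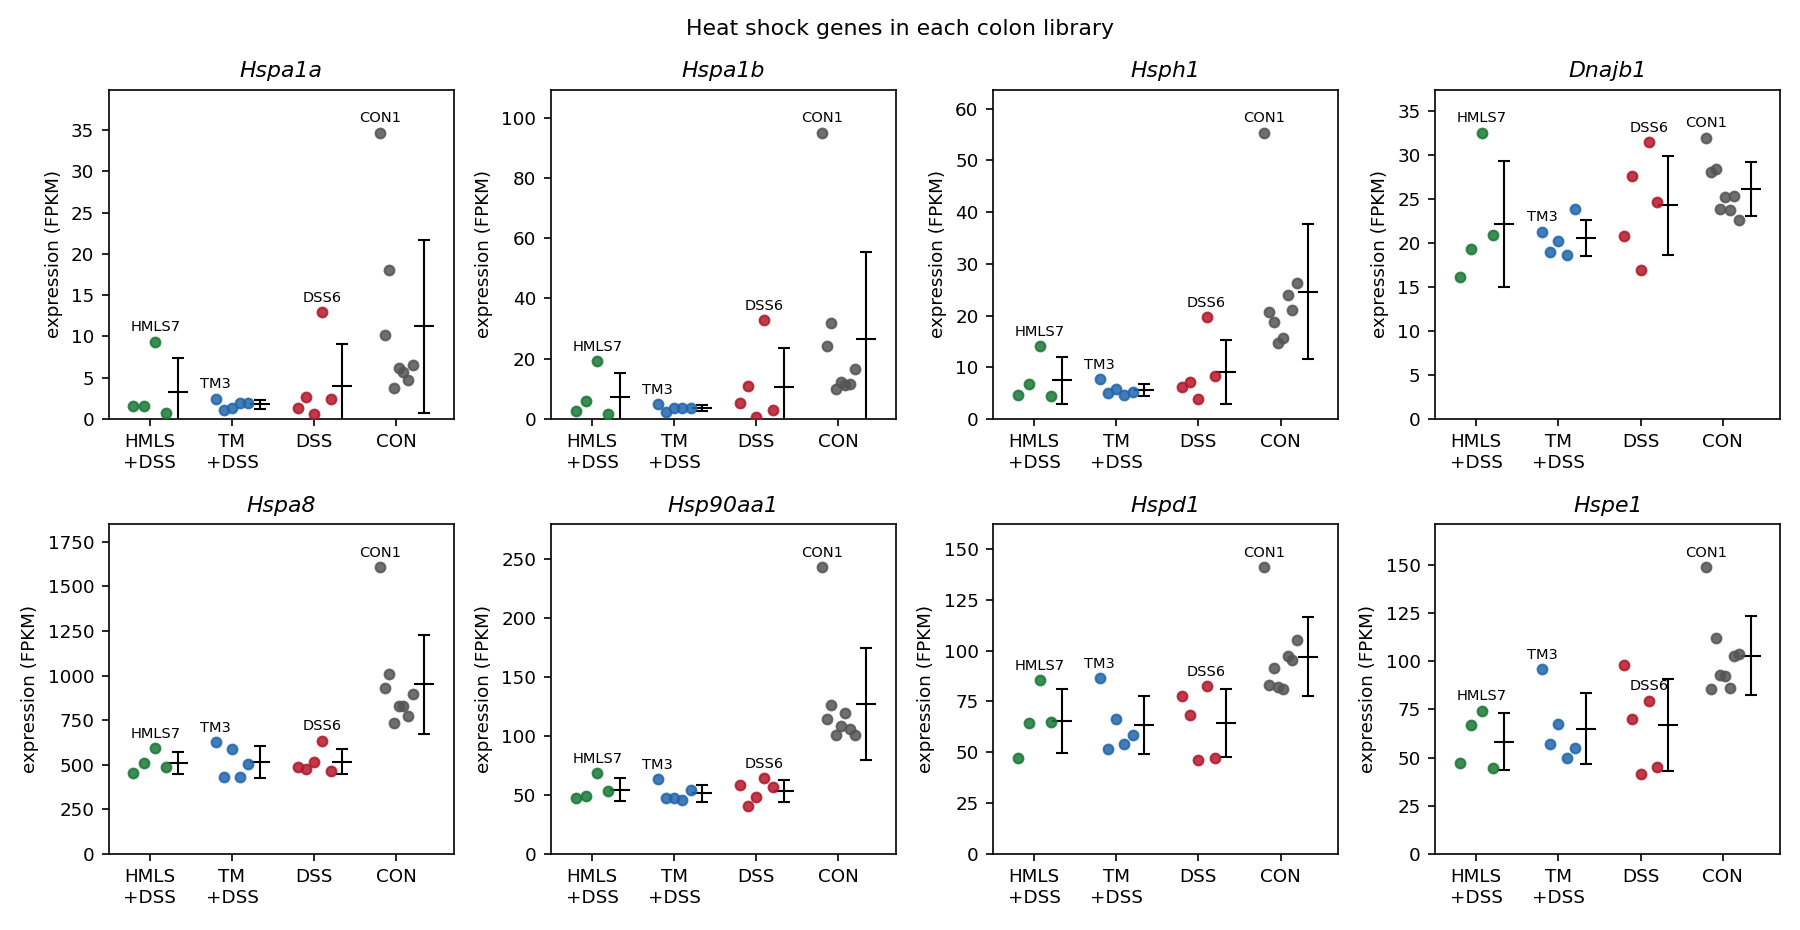
Expression in FPKM of the 8 heat shock genes, 1 point per library, with the group mean and SD beside the points; bars that would pass below 0 end at the axis. In Hspa8 and Hsp90aa1 all DSS-treated libraries lie below the CON minima of 734 and 101 FPKM, and in Dnajb1 all groups overlap. CON1 is the highest CON library in every panel, and HMLS7 the highest HMLS library.

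Counted over the set, 2 genes were higher and 5 lower at an adjusted p under 0.05 in HMLS vs CON, 2 and 8 in TM vs CON, and 2 and 5 in DSS vs CON. Over all genes tested, 34.1% were called in HMLS vs CON (17.5% higher, 16.6% lower), 26.0% in TM vs CON (14.3% and 11.8%) and 27.1% in DSS vs CON (14.0% and 13.1%). Since the members were chosen with these values known, nothing is read from their share. The genes not past the threshold in HMLS and in DSS were Hspa1a, Hspa1b and Dnajb1. The 8 heat shock genes had a median log2 difference of -1.02 in HMLS, -1.05 in TM and -1.02 in DSS, beside 0.002, 0.008 and -0.008 over all genes. All libraries of the group lay above CON in Cirbp alone, where 7.82%, 4.66% and 4.13% of genes did so in HMLS, TM and DSS. They lay below CON in 4 members in HMLS, 5 in TM and 2 in DSS, where 7.21%, 3.40% and 3.72% of all genes did so. Over the 14 DSS-treated libraries together, Cirbp was above all of CON, as were 1.47% of genes, and Hspa8 and Hsp90aa1 below, as were 0.892%. The 3 comparisons share the CON libraries, so they are not independent.

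A single library or covariate changed these counts. Without HMLS replicate 7 all 8 heat shock genes were called lower in HMLS vs CON, without HMLS replicate 3 only 1 member was higher and 4 lower, and the call of Rbm3 in HMLS vs CON held in 10 of 20 alternatives. It was lost without any 1 of HMLS replicates 3 and 8 or CON replicates 3, 4, 7 and 8, with no filter, with quantile normalization, with the replicate block and with the covariate. Without DSS replicate 6 the lower members in DSS vs CON numbered 7, and without DSS replicate 7 they numbered 3. Without CON replicate 1, DSS replicate 6 and HMLS replicate 7 together, a setting chosen after seeing the data, the lower members numbered 8 in HMLS, 8 in TM and 7 in DSS. With the percent of mapped reads as a covariate, no member was called in DSS vs CON, although Cirbp still differed by 1.72 and Hsp90aa1 by -1.45, and the mapped share and the group cannot be told apart there. With the same covariate 1 member was higher and 5 lower in HMLS vs CON, and 2 and 8 in TM vs CON, whose mapped shares overlapped those of CON.

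**Figure D3:**
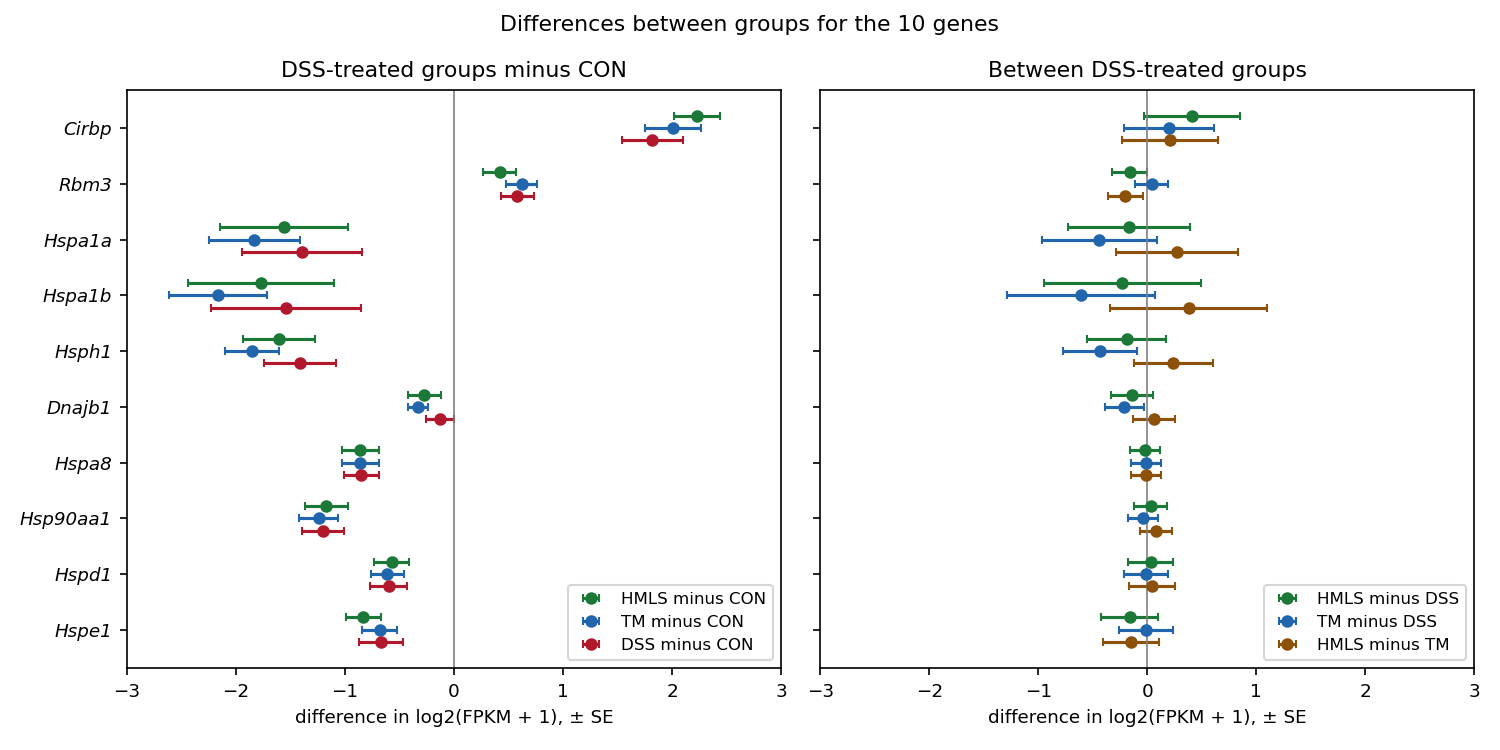
Difference in log2(FPKM + 1) with its SE for each of the 10 genes, for the DSS-treated groups minus CON on the left and between DSS-treated groups on the right. On the left Cirbp lies near 2 in all 3 groups, Rbm3 between 0.42 and 0.62, and all heat shock genes at or below -0.13, with Dnajb1 nearest 0; on the right no gene lies beyond 0.61 in either direction.

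The deep sea waters are the study's subject, and the comparisons that bear on them are HMLS vs DSS and TM vs DSS. None of the 10 genes was called in either, nor in HMLS vs TM, and no gene of 13341 was called in any of the 3 by limma (0% of genes), with 740, 367 and 1260 genes at an unadjusted p under 0.05. In Cirbp the difference was 0.41 ± 0.44 (SE) for HMLS minus DSS, with a 95% interval of -0.52 to 1.34. For TM minus DSS it was 0.20 ± 0.41 (-0.68 to 1.07), and for HMLS minus TM 0.21 ± 0.44 (-0.72 to 1.14). For Hspa1b the intervals were wider, at -1.76 to 1.30 for HMLS minus DSS and -2.06 to 0.83 for TM minus DSS, so differences of several fold were not detectable in it. Hspa8 and Hsp90aa1 gave the narrowest intervals of the heat shock genes, at -0.33 to 0.29 and -0.29 to 0.36 for HMLS minus DSS and -0.30 to 0.28 and -0.35 to 0.26 for TM minus DSS. In none of the 10 genes did all libraries of one group lie above or below all of the other, where 0.562% and 0.607% of genes did so in HMLS vs DSS, 0.300% and 0.165% in TM vs DSS, and 1.63% and 2.20% in HMLS vs TM. All 8 heat shock genes had a lower mean in TM than in DSS on the log2 scale and 6 in HMLS than in DSS, with medians of -0.13 and -0.15, and all their intervals included 0. In TM minus DSS the difference was only -0.01 in Hspa8, Hspd1 and Hspe1 and -0.04 in Hsp90aa1. Its sign held in 9 of 18 alternatives for Hspd1 and 8 of 18 for Hspe1, so nothing is read from the count of signs. With the replicate block, Cirbp differed by 0.04 in TM minus DSS. Of the heat shock genes, Hspd1 then differed by 0.12 and Hspe1 by 0.27. The others stayed lower in TM, such as Hspa1a at -0.59, Hsph1 at -0.52, Hspa1b at -0.24 and Hspa8 at -0.09. Without DSS replicate 6 the difference of TM minus DSS in several of them was near 0, such as -0.05 in Hspa1b and -0.12 in Hsph1.

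Within a group the heat shock genes were high or low in the same libraries, and Cirbp was mostly low where they were high. CON replicate 1 was the highest CON library in all 8 heat shock genes and the lowest in Cirbp. HMLS replicate 7 was the highest HMLS library in all 8 and the lowest in Cirbp, DSS replicate 6 was the highest DSS library in 7 and the lowest in Cirbp, and TM replicate 3 was the highest TM library in 7 and the lowest in Cirbp. DSS replicate 5 was the lowest DSS library in 6 heat shock genes and the highest in Cirbp, at 164 FPKM. Rbm3 did not follow Cirbp in this: CON replicate 1 and TM replicate 3 were the highest of their groups in Rbm3, and HMLS replicate 7 and DSS replicate 6 the lowest. Depth was 51198694 reads in HMLS replicate 7, 60740974 in TM replicate 3 and 57052010 in CON replicate 1, each within the range of its group. DSS replicate 6 was the deepest DSS library, at 63193922 reads against 48089882 to 52997566 in the others, and the part of depth in its values was not tested.

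Pearson correlations of log2(FPKM + 1) over the 22 libraries, after the mean of each group was removed, describe this, with no test. The 28 pairs of heat shock genes gave r of 0.48 to 0.94 with a median of 0.73. Without CON replicate 1, DSS replicate 6 and HMLS replicate 7 they gave 0.05 to 0.84 with a median of 0.42, so much of this likeness rested on those libraries. These 3 libraries were chosen after seeing the data and were extreme in these same genes, so leaving them out tends to lower r. TM replicate 3, the highest TM library in 7 of the genes, was kept. Cirbp and the heat shock genes gave r of -0.92 to -0.53, and -0.91 to -0.15 without the 3 libraries. The strongest of these was Cirbp with Hspd1, at -0.92 with all libraries and -0.91 without the 3, and of 13784 genes Cirbp was the one least like Hspd1. Cirbp with Hspe1 gave -0.90 in both settings. Cirbp and Rbm3, although both higher in the DSS-treated groups, gave r of -0.03, and Rbm3 gave -0.07 to 0.42 with the heat shock genes. The points share the library's total, through which FPKM values are scaled, and the genes' correlations with the percent of mapped reads lay between -0.23 and 0.30.

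**Figure D4:**
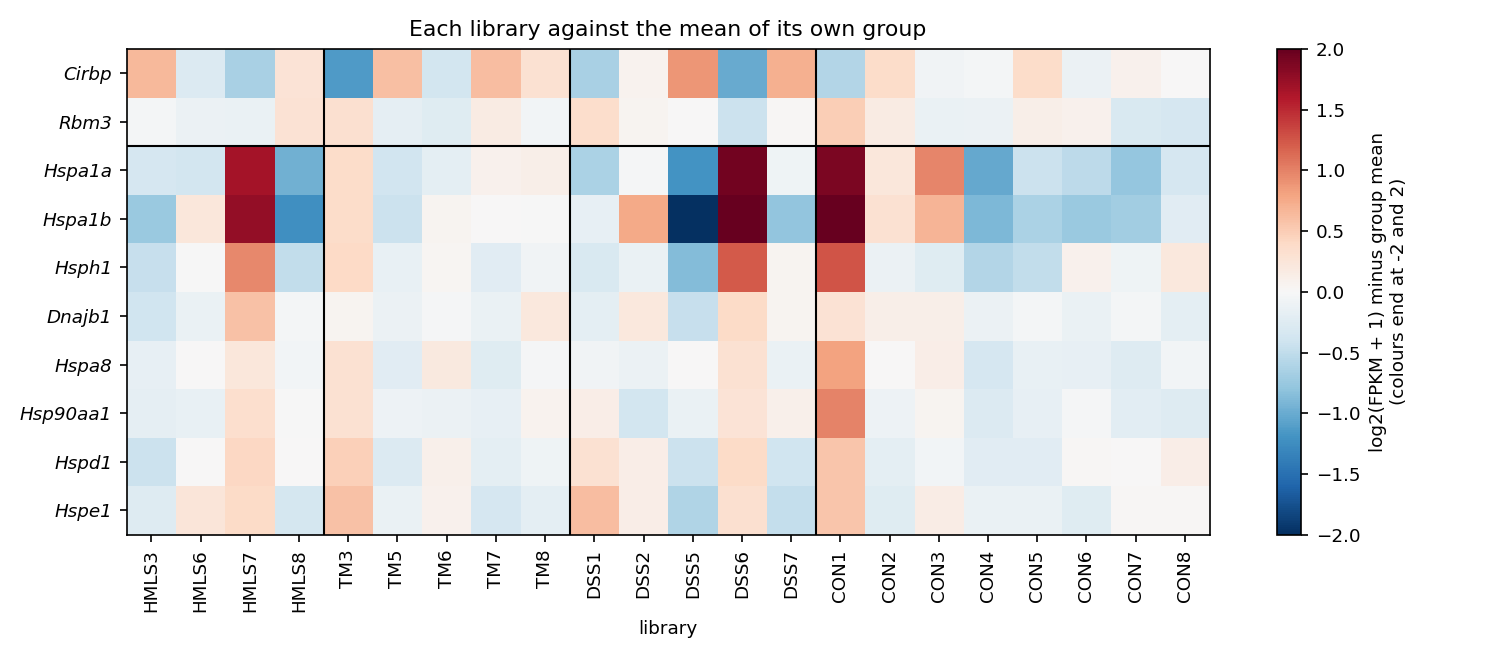
Colour map of log2(FPKM + 1) in each of 22 libraries minus the mean of its own group, for the 10 genes, with groups parted by lines and colours ending at -2 and 2. CON1, DSS6 and HMLS7 are the reddest columns over the heat shock genes and are blue in Cirbp.

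The genes most like 5 of the members by the same correlation were named by rule, leaving out other members, over 22 libraries and 13784 genes. For Cirbp they were Pnrc1, a nuclear receptor coactivator (r = 0.95, Spearman's rho 0.94), Tox, a nuclear HMG-box protein (0.91, 0.93), and Sesn1, a sestrin that restrains growth signalling (0.90, 0.90). For Rbm3 they were Ilf2, Hmgb1 and Dnajc3, with r of 0.84, 0.82 and 0.80. For Hspa1b they were Uros, Timmdc1 and the Hsp90 co-chaperone Chordc1, with r of 0.87, 0.86 and 0.85, after Hspa1a at 0.94. For Hsph1 they were Dnaja1, an Hsp40, Hspa4l, a second Hsp110 protein, and Wdr12, with r of 0.89, 0.82 and 0.82. For Hspd1 they were Mcph1, Kpnb1 and Timm8a1, with r of 0.92, 0.90 and 0.90, and its partner Hspe1 stood close behind at 0.88. Without the 3 libraries the companions of Cirbp stayed at 0.91 to 0.94 and those of Hspd1 at 0.86 to 0.90, while Dnaja1 and Hspa4l were at 0.67 and 0.59 with Hsph1 and Chordc1 at 0.69 with Hspa1b.

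Among the pathway genes described next, some chosen after their values were seen followed Cirbp closely. Srsf5, an SR protein of the splicing machinery, ranked 4 of 13784 genes in likeness to Cirbp with r of 0.90, followed by the clock repressor Cry2 (0.87), the RNA-binding protein Hnrnpdl (0.83) and Fkbp5 (0.80), an Hsp90 co-chaperone that glucocorticoids are known to induce. Srsf5 was at 395, 245, 175 and 425 FPKM in the HMLS libraries, 156, 306, 158, 413 and 292 FPKM in the TM libraries and 205, 191, 472, 152 and 334 FPKM in the DSS libraries, against 101, 138 and 149 FPKM as the lowest, median and highest in CON. All DSS-treated libraries lay above CON in Srsf5, as in Cirbp. Fkbp5 was at 364, 153, 64.4 and 325 FPKM in the HMLS libraries, 86.0, 252, 88.6, 289 and 188 FPKM in the TM libraries and 69.0, 139, 358, 114 and 304 FPKM in the DSS libraries, against 31.1, 48.6 and 88.7 FPKM as the lowest, median and highest in CON. HMLS replicate 7 and TM replicate 3, the lowest of their groups in Cirbp, were the lowest in Fkbp5 too. The other groups departed from this: DSS replicate 6, the lowest DSS library in Cirbp, was above DSS replicate 1 in Fkbp5, and CON replicate 1, the lowest CON library in Cirbp, was above the CON median in Fkbp5 at 61.4 FPKM.

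**Figure D5:**
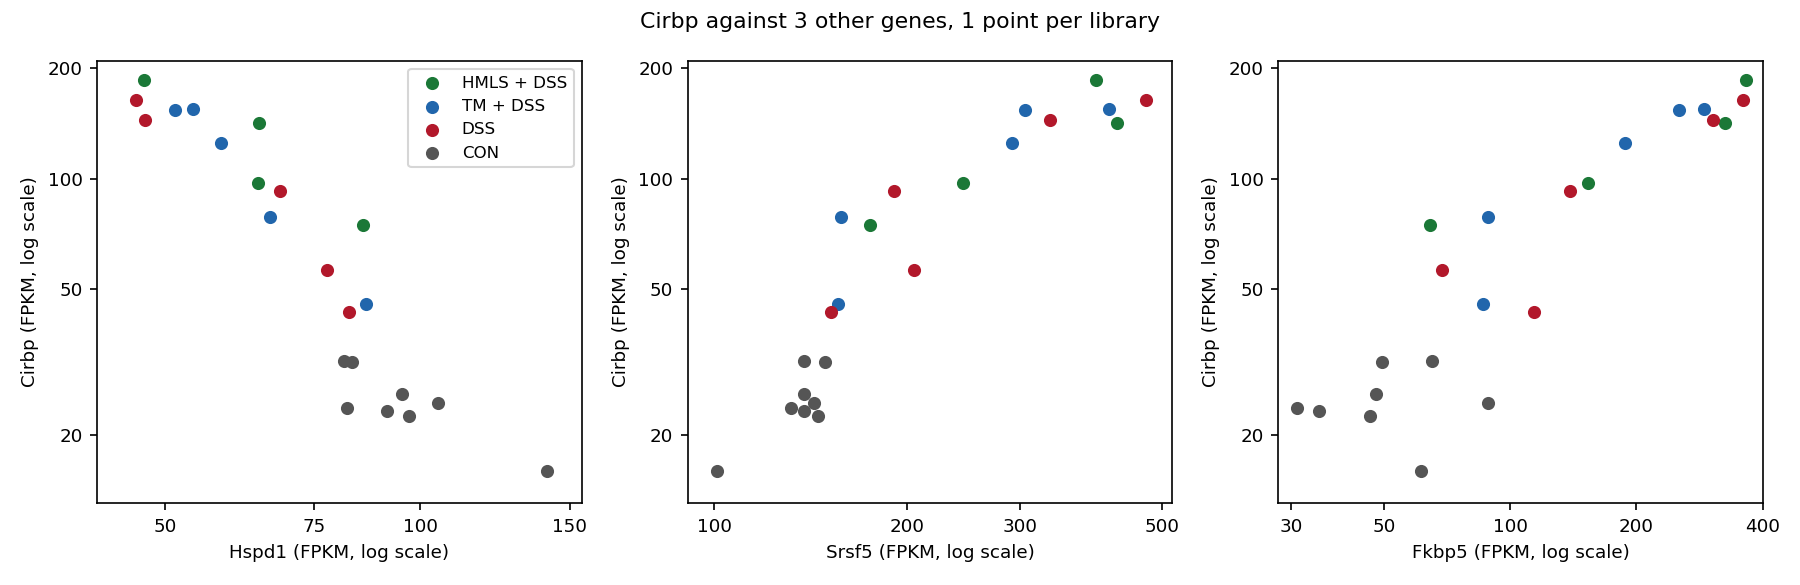
Cirbp against Hspd1, Srsf5 and Fkbp5, all in FPKM on log axes, 1 point per library. Over the pooled groups Cirbp is low where Hspd1 is high, down to 15.9 FPKM at an Hspd1 level of 141 in CON1. It is high where Srsf5 and Fkbp5 are high, up to 186 FPKM at an Fkbp5 level of 364 in HMLS replicate 3. Group means are not removed, so the difference between CON and the DSS-treated groups is part of these relations. Within CON, CON8 is the highest in Fkbp5 at 88.7 FPKM but near the median in Cirbp at 24.4 FPKM.

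The other genes of the pathway were taken from 8 lists of textbook membership, chosen with earlier results of these data known and given by counts with no test of the list. Of 35 other heat shock genes, 6 rose and 11 fell in HMLS vs CON, 8 and 13 in TM vs CON, and 4 and 12 in DSS vs CON, with median log2 differences of -0.13, -0.17 and -0.16. These are 17.1% and 31.4% of the list in HMLS, 22.9% and 37.1% in TM, and 11.4% and 34.3% in DSS, beside 17.5% and 16.6%, 14.3% and 11.8%, and 14.0% and 13.1% of all genes. Ahsa1, which stimulates the ATPase of Hsp90, fell in all 3 groups, to means of 25.8 FPKM in HMLS, 28.9 in TM and 28.1 in DSS against 49.4 in CON (log2 -0.89 ± 0.14, -0.74 ± 0.12 and -0.78 ± 0.14, adjusted p 0.000556, 0.00104 and 0.00162). Stip1, the adaptor between Hsp70 and Hsp90, had means of 14.0, 16.4 and 16.8 FPKM against 34.3 in CON and fell by 1.19 ± 0.17 in HMLS (adjusted p 0.000412). Serpinh1, the collagen chaperone of the endoplasmic reticulum, fell by 1.66 ± 0.18 in HMLS, 1.25 ± 0.24 in TM and 1.49 ± 0.23 in DSS (adjusted p 9.87e-05, 0.00278 and 0.00105), against a mean of 30.6 FPKM in CON. Hspa4l fell by 0.86 ± 0.17 in HMLS, 1.03 ± 0.16 in TM and 0.90 ± 0.16 in DSS (adjusted p 0.00195, 0.000588 and 0.00173). Chordc1 fell by 0.89 ± 0.27, 1.11 ± 0.17 and 0.86 ± 0.25 (adjusted p 0.0223, 0.000662 and 0.0199). The Chordc1 call was lost in HMLS without HMLS replicate 3 or 8 and in DSS without DSS replicate 7. Other members of the list rose: Dnaja2, an Hsp40, Ier5 and Dedd2 in all 3 groups, Hspb8, a small heat shock protein, in HMLS and TM, and Bag3, its partner in selective autophagy, in TM and DSS, these being chosen after their values were seen. Hspb8 averaged 34.7 FPKM in HMLS and 37.2 in TM against 18.0 in CON (adjusted p 0.00615 and 0.00979). In TM the call of Bag3 was lost without CON replicate 2, 4 or 6 or TM replicate 5 or 8, at adjusted p of 0.0533 to 0.0981, that of Dedd2 without TM replicate 5, 7 or 8, and that of Dnaja2 without TM replicate 7.

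Of the 9 heat shock factors and regulators 7 were tested. Hsf1 itself fell in HMLS, to 9.34 ± 1.02 FPKM (n = 4) against 12.2 ± 1.72 in CON (n = 8; log2 -0.35 ± 0.12, adjusted p 0.0288 by limma over all genes). The call was lost without HMLS replicate 7 or 8 or CON replicate 1 or 5, at adjusted p of 0.0503 to 0.0879. Hsf1 did not pass in TM (10.7 FPKM, adjusted p 0.203) or DSS (10.6 FPKM, adjusted p 0.211). Hsf2 averaged 5.17 FPKM in HMLS, 3.51 in TM, 3.86 in DSS and 4.27 in CON and passed in none, and Hsf4 and Hsf5 were too low to be tested. Fkbp5 rose by 1.85 ± 0.42 in HMLS, 1.64 ± 0.32 in TM and 1.68 ± 0.35 in DSS (adjusted p 0.00583, 0.00303 and 0.00468). Vcp, an ATPase that serves the degradation of unfolded protein, rose by 0.35 ± 0.10 in DSS (adjusted p 0.0247), a call lost without DSS replicate 2 or 7 (adjusted p 0.0614 and 0.0604).

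The partners of the mitochondrial pair are given next. Of 14 genes of mitochondrial protein quality control, 2 rose and 3 fell in HMLS, 2 and 1 in TM, and 1 and 1 in DSS, in all 35.7%, 21.4% and 14.3% of the list beside 34.1%, 26.0% and 27.1% of all genes. The protease subunit Afg3l2 rose by 0.71 ± 0.18 in HMLS, 0.63 ± 0.15 in TM and 0.58 ± 0.19 in DSS (adjusted p 0.00837, 0.00884 and 0.0351), and in DSS the call was lost without any 1 of CON replicates 1 to 5 or DSS replicates 2, 5, 6 and 7, at adjusted p of 0.0544 to 0.0785. Hspa9, the mitochondrial Hsp70, averaged 93.5, 85.6 and 87.1 FPKM against 96.4 in CON and passed in none. Of 13 subunits of the cytosolic chaperonin and prefoldin, 1 rose and 2 fell in HMLS, 1 rose and 1 fell in TM and 4 fell in DSS, in all 23.1%, 15.4% and 30.8% of the list. Cct3 fell in all 3 groups, by 0.54 ± 0.13, 0.46 ± 0.14 and 0.55 ± 0.13 (adjusted p 0.00528, 0.0232 and 0.00808). In TM that call was lost without TM replicate 5, 7 or 8. Of 14 chaperones of the endoplasmic reticulum, 1 rose and 5 fell in HMLS, in all 42.9% of the list beside 34.1% of all genes. Of those that fell, Pdia4 and Pdia6 had the smallest p and fell by 0.62 ± 0.16 and 0.68 ± 0.19 (adjusted p 0.0102 and 0.0150, the second at 0.0513 without HMLS replicate 6), while Dnajb9 rose by 0.87 ± 0.15 (adjusted p 0.000915). None of these 14 passed in TM or DSS, but the difference between the groups was not past the threshold for any of them in HMLS vs DSS or HMLS vs TM.

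Splicing, clock and immediate early genes were included because the kinases of SR proteins and the clock are known to respond to body temperature, in mice and other mammals. Of 20 genes for splicing kinases and SR proteins, 8 rose and 1 fell in HMLS, 3 and 3 in TM, and 3 and 1 in DSS. The 8 of 20 that rose in HMLS stand beside 17.5% of all genes, and the 15.0% that rose in TM and in DSS beside 14.3% and 14.0%. Hnrnpdl, Srsf5 and Srsf4 rose in all 3, although Srsf4 did not pass in DSS without DSS replicate 2 or 5. Hnrnpdl rose by 1.29 ± 0.14 in HMLS, 0.91 ± 0.15 in TM and 0.85 ± 0.17 in DSS (adjusted p 0.000106, 0.000938 and 0.00305), and Srsf7 fell by 0.76 ± 0.13 in TM and 0.62 ± 0.14 in DSS (adjusted p 0.00122 and 0.00623). Of 18 clock genes tested, 10 rose in HMLS, 6 rose and 1 fell in TM, and 7 rose in DSS, so that 55.6%, 33.3% and 38.9% of the list rose. Per1, a repressor of the clock, was at 4.10 to 41.5 FPKM in HMLS, 12.6 to 29.4 in TM and 9.35 to 57.8 in DSS against 2.27 to 6.52 in CON. It rose by 1.64 ± 0.46, 1.87 ± 0.22 and 1.94 ± 0.33 (adjusted p 0.0180, 0.000138 and 0.00155), and the HMLS call was lost without HMLS replicate 3 or 8 (adjusted p 0.0531 and 0.0646). The core activator Arntl differed from CON by -0.02 ± 0.24 in HMLS, -0.12 ± 0.22 in TM and -0.45 ± 0.31 in DSS and passed in none. Its partner Clock fell by 0.24 ± 0.08 in TM (adjusted p 0.0498), a call lost without any 1 of the CON libraries but replicate 3, or of TM replicates 5, 7 and 8, at adjusted p of 0.0509 to 0.142. The time of day of tissue collection is not given in the labels. Of the immediate early genes, which cells switch on within minutes of a stimulus, 3 of 11 rose in HMLS, 6 of 11 in TM and 5 of 12 in DSS and none fell, which makes 27.3%, 54.5% and 41.7% that rose, with mean levels of Jun, a subunit of the AP-1 factor, of 68.9, 72.0 and 105 FPKM against 43.5 in CON. Its call in TM was lost without TM replicate 7 or 8. With the percent of mapped reads as a covariate, none of the 35 other heat shock genes passed in DSS vs CON, whereas 12 did in HMLS vs CON and 23 in TM vs CON. No gene of any of the 8 lists passed between the DSS-treated groups.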

How the data were processed

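The authors deposited 1 expression table of 23997 genes, taken here to hold FPKM (fragments scaled by transcript length and mapped total) because the submitters' processing notes name Cufflinks 2.2.0 with TopHat2 2.0.13, Bowtie, bcl2fastq 2.20 and the mouse build mm10, while its header gives no unit. A second deposited table holds, per library, a count of reads and the percent mapped. Per the labels, flash frozen colon gave RNA by Trizol extraction for a stranded total RNA kit. No read counts per gene were used, so precision rests on the spread between libraries.

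Tests were made on log2(FPKM + 1) by limma (version 3.58.1, R 4.3.3, intensity trend, robust variance), with Benjamini-Hochberg adjustment over all genes and a threshold of 0.05; folds understate the change of genes near 1 FPKM. Genes under 1 FPKM in all but 3 or fewer libraries of a fit were left out. A comparison with CON was fitted on its own pair of groups, and the comparisons between DSS-treated groups shared a fit of those 3 groups. The scripts were tested on simulated data. The 10 genes and the 8 pathway lists of 140 genes were chosen with earlier results of these data known. The rule for naming took all members and, per list, up to 3 genes with the smallest p that passed in each comparison with CON (or the 2 smallest). It also took the 3 genes most like each of 5 members after group means were removed. Predicted genes, small RNAs and pseudogenes were left out there. Some genes that the rule took from the lists are not described above. Hspb8, Bag3, Dnaja2, Ier5, Dedd2, Arntl, Clock, Cry2, Hspa9 and Hsf2 were added after their values were seen. Positions are from GENCODE M21 and promoters from RefSeq.

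Replicate numbers of the titles were checked for pairing by the correlation of deviations from group means. In TM vs DSS all 3 pairs correlated above 0.1 (0.137 to 0.432), but only 1 of the 3 correlated best with its own number. Whether these numbers pair the libraries is therefore uncertain. The fit called 0 genes in TM vs DSS both with and without the block. In the other comparisons not all pairs correlated above 0.1, with 3 of 5 in TM vs CON and 2 of 5 in DSS vs CON. There the numbers were not taken as pairs. Alternatives were another pseudocount, no filter, other scalings, a joint fit, the percent mapped as a covariate, a replicate block, each library left out and, chosen after seeing the data, 3 libraries left out together.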

Additional observations from a re-analysis of the deposited data

Results flagged for a closer look

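In 4 of the 40 sets of 1 gene in 1 group, a library stood apart from the others of its group by more than Dixon's limit, which chance passes in about 1 in 20 sets. All 4 were CON replicate 1, which was the highest. The sets are not independent, since the heat shock genes correlated within groups at r of 0.48 to 0.94. The genes were also chosen with these values known, so the number of sets is not read against chance. Hsph1 was at 55.4 FPKM in it and at 14.6 to 26.2 FPKM in the other CON libraries. Hspa8 was at 1608 FPKM, against 734 to 1011 FPKM in the others. Hsp90aa1 was at 243 FPKM, against 101 to 126 FPKM, and Hspd1 at 141 FPKM, against 81.3 to 105 FPKM. The gap to the next library was 0.57, 0.59, 0.75 and 0.54 of the group's range on the log2 scale, above the limit for 8 libraries in each. Without CON replicate 1 the counts of members called higher and lower were 2 and 5 in HMLS vs CON, 2 and 8 in TM vs CON and 2 and 5 in DSS vs CON.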

How the results depend on the processing

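For the 10 genes, 1138 of 1140 values under the alternatives lay within 1 SD of the reported value, which is a wide limit. Shifts inside it included Hspa1a in DSS vs CON from -1.39 to -2.34 and Hsph1 from -1.41 to -2.05, with the percent mapped as a covariate. The exceptions were Dnajb1 in DSS vs CON at -0.40 and Rbm3 in TM vs DSS at -0.22, both with the same covariate. No called gene changed sign, although calls were lost (Rbm3 in HMLS vs CON in 10 of 20). For named pathway genes, 2075 of 2336 alternatives gave the same call, 245 lost it, 5 gained it and 11 changed the sign of a difference that had not passed. The sign changed in Arntl in HMLS vs CON (reported as -0.02), at 0.22 with a replicate block, 0.08 without CON replicate 1, DSS replicate 6 and HMLS replicate 7, and in Hspa9 in HMLS vs CON (reported as -0.04). Leaving out 1 library gave -0.17 to 0.05 in Arntl and -0.08 to 0.03 in Hspa9, on both sides of 0. With the percent mapped as a covariate 26 genes were called in DSS vs CON (4 higher, 22 lower) in place of 3655. With a replicate block, the calls numbered 753 in HMLS vs CON in place of 4565, 2000 in TM vs CON in place of 3510 and 2176 in DSS vs CON. Of the 35 other heat shock genes 7 in place of 17 then passed in HMLS vs CON, and the block changed no count between DSS-treated groups. These replicate numbers are shared only as numbers: same-numbered pairs correlated at -0.201 to 0.324 in DSS vs CON, and 1 of 5 correlated best with its own number. Leaving out 1 library gave 3106 to 4808 genes in HMLS vs CON, 2501 to 4170 in TM vs CON and 2493 to 4166 in DSS vs CON, 0 to 1 in HMLS vs DSS, 0 in TM vs DSS and 0 to 3 in HMLS vs TM, where the 1 and the 3 came without HMLS replicate 3. The causes were not tested. Limits: values hold no read counts, so the depth behind each gene is unknown; the groups are of 4 to 8 libraries; the DSS-treated groups share the CON libraries; and reads of Hspa1a and Hspa1b, or of Hspd1, Hspe1 and their pseudogenes, may be mixed.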
